A study of Arabidopsis thaliana with 12 samples.

Results

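PRK (AT1G32060) encodes phosphoribulokinase and SBPASE (AT3G55800) encodes sedoheptulose-1,7-bisphosphatase, enzymes of the regeneration phase of the Calvin cycle. Both were chosen by gene name and not by their measured values, as the measured genes of ribulose bisphosphate regeneration. Earlier results of these data were known at that point. They are 2 of the 691 genes that had a feature of their own, among 3438 genes or features tested. RNA was taken from Arabidopsis thaliana plants of ecotype Columbia 0, in 6 wild-type (WT) samples and 6 samples of the pam46 mutant, whose photosynthesis is altered and whose defect, per the labels, lies in an unknown protein. The sources used here do not give the tissue, age, growth conditions or mutated gene, nor the number of plants behind a sample or whether samples came from separate plants. The p-values below therefore measure a spread between samples that may be technical.

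The Calvin cycle fixes carbon dioxide onto ribulose 1,5-bisphosphate in the chloroplast stroma, reduces the product to triose phosphate, and rebuilds the acceptor from most of it. SBPASE dephosphorylates sedoheptulose 1,7-bisphosphate, an irreversible step that commits carbon to regeneration, and PRK phosphorylates ribulose 5-phosphate with ATP to give back the acceptor. Both enzymes are encoded in the nucleus, imported into the chloroplast, and switched on in the light when thioredoxins reduce their regulatory cysteines. PRK is also held inactive in the dark in a complex with the small protein CP12.

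The array gave 1 spot intensity per feature and sample, on a linear scale from 0 to a cap of 100. Summed intensities of the 12 samples lay between 3290 and 3644. Medians separated the groups, at 0.296 to 0.341 in WT and 0.199 to 0.226 in pam46, so the values were quantile normalized before testing. On the values as deposited the median log2 fold change of all features was -0.355, and directions are given on the normalized scale unless the deposited values are named. Arrays have no read depth, and precision is limited by how many were run. Neither PRK nor SBPASE was at the floor set for low values in any sample.

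PRK was higher in pam46 than in WT, 1.55-fold on the normalized scale (95% interval 1.31 to 1.84, n = 6 per group). SBPASE was 1.40-fold higher on that scale (1.08 to 1.81), but its deposited intensity was the same in both groups to within 1%, at a mean ratio of 0.995. PRK thus rose on the deposited and the normalized values, while SBPASE rose only under scalings that level the medians of the samples, which were lower in pam46. Both passed the test as higher, where 19.5% of all features did so and 41.1% changed in either direction. This call treats the 12 samples as independent. With consecutive sample numbers averaged, SBPASE was not called (limma adjusted p = 0.226), and with these averages blocked by number PRK was not called either (0.0557).

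The deposited intensities of PRK in WT samples 1 to 6 were 1.91, 2.09, 1.82, 2.61, 1.85 and 2.59. In pam46 samples 1 to 6 they were 3.75, 3.67, 3.74, 3.37, 3.34 and 3.31. All 6 pam46 samples lay above the highest WT sample, and WT samples 4 and 6 stood above the other WT samples. WT samples averaged 2.15 ± 0.364 and pam46 samples 3.53 ± 0.211 (SD, n = 6 each). The coefficient of variation was 16.9% in WT and 5.97% in pam46.

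After normalization PRK ran from 1.89 over a median of 1.99 to 2.78 in WT and from 3.14 over a median of 3.37 to 3.61 in pam46. The groups again did not overlap, a pattern shown upwards by 10.7% of all features on this scale and by 5.38% on the deposited values. The log2 fold change was 0.63 ± 0.11 (SE, limma adjusted p = 0.00092). The exact two-sided permutation test of the group means gave p = 0.00216, the smallest that 6 against 6 samples allow. Ranked from the brightest feature of its sample, PRK stood at places 166 to 244 in WT and 128 to 146 in pam46.

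The deposited intensities of SBPASE in WT samples 1 to 6 were 0.322, 0.371, 0.401, 0.432, 0.330 and 0.258. In pam46 samples 1 to 6 they were 0.423, 0.414, 0.293, 0.326, 0.336 and 0.312. The groups overlapped throughout, with WT samples 4 and 6 as the highest and the lowest of all 12. WT samples averaged 0.352 ± 0.0623 and pam46 samples 0.351 ± 0.0545 (SD, n = 6 each), and the exact two-sided permutation test gave p = 0.963.

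Normalized SBPASE ran from 0.190 over a median of 0.293 to 0.399 in WT and from 0.362 over a median of 0.401 to 0.466 in pam46. In 3 of 6 pam46 samples it lay above every WT sample, and in 4 of 6 WT samples below every pam46 sample. The log2 fold change was 0.48 ± 0.17 (SE, limma adjusted p = 0.0404), and the exact two-sided permutation test gave p = 0.0238. SBPASE moved from places 1249 to 2093 among the features of a sample in WT to places 1082 to 1353 in pam46. A place in this order is set by the other features as well as by SBPASE, and most of those were dimmer in pam46.

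**Figure D1:**
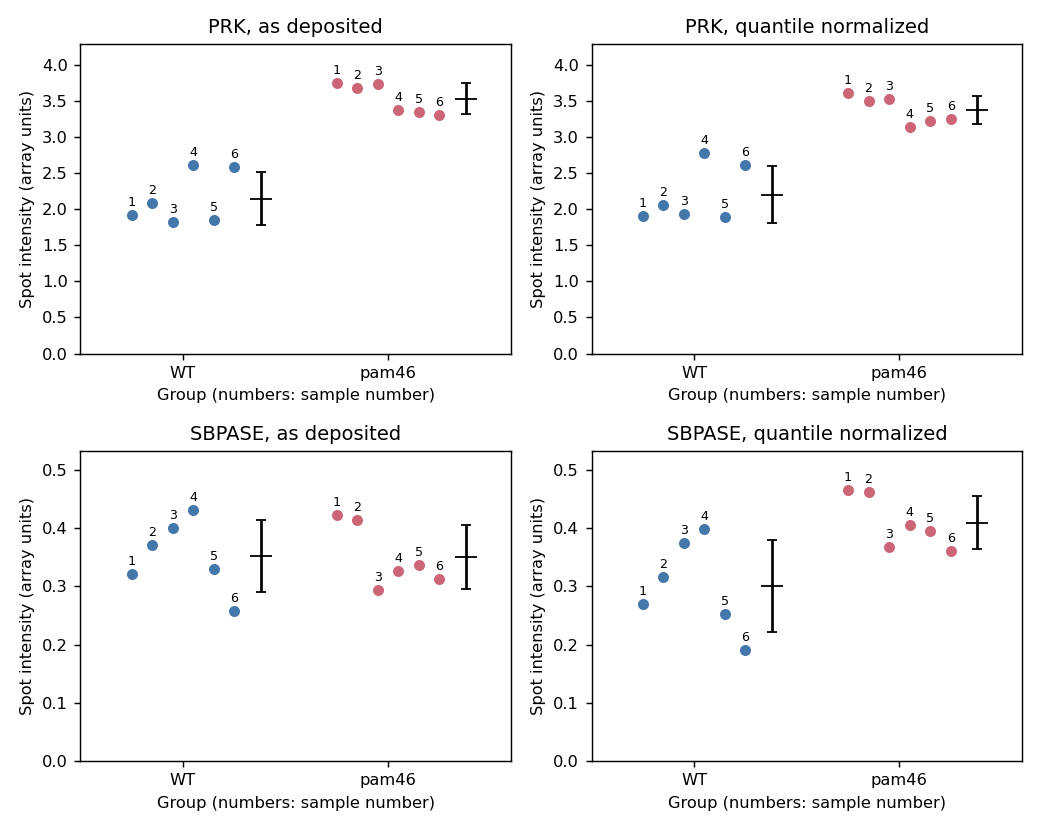
Spot intensity (array units) of PRK (top) and SBPASE (bottom) in each of 6 WT and 6 pam46 samples, as deposited (left) and quantile normalized (right), with the sample number above each point and the mean ± SD of the group in black. All pam46 samples lie above all WT samples for PRK in both panels, while the deposited SBPASE means are 0.352 in WT and 0.351 in pam46.

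The scale on which samples are compared therefore decided the result for SBPASE and not the one for PRK. On the deposited values PRK was at 0.73 ± 0.10 (SE, limma adjusted p = 0.000176), a change above that of 90.6% of features where 10.8% were called higher, and SBPASE was at -0.00093 ± 0.14 (limma adjusted p = 1, 95% interval -0.30 to 0.30), above 65.5% of features. With every sample divided by its sum, SBPASE was at 0.02 (limma adjusted p = 0.941). With every sample divided by its median PRK was at 1.29 and SBPASE at 0.56, both called (limma adjusted p = 9.95e-06 and 0.0132). Under that scaling 26.2% of all features were called higher and 44.8% in either direction. On the normalized scale 77.7% of features had a lower change than PRK and 72.5% a lower change than SBPASE. The shift of the deposited values was not the same at every brightness. With features split into 4 equal sets by mean intensity, the median log2 fold change as deposited was -0.475 in the set that holds SBPASE (0.276 to 0.586) and -0.0847 in the brightest set, which holds PRK. Scalings that act at each brightness, quantile and cyclic loess, put PRK at 0.63 and 0.67 and SBPASE at 0.48 and 0.47.

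**Figure D2:**
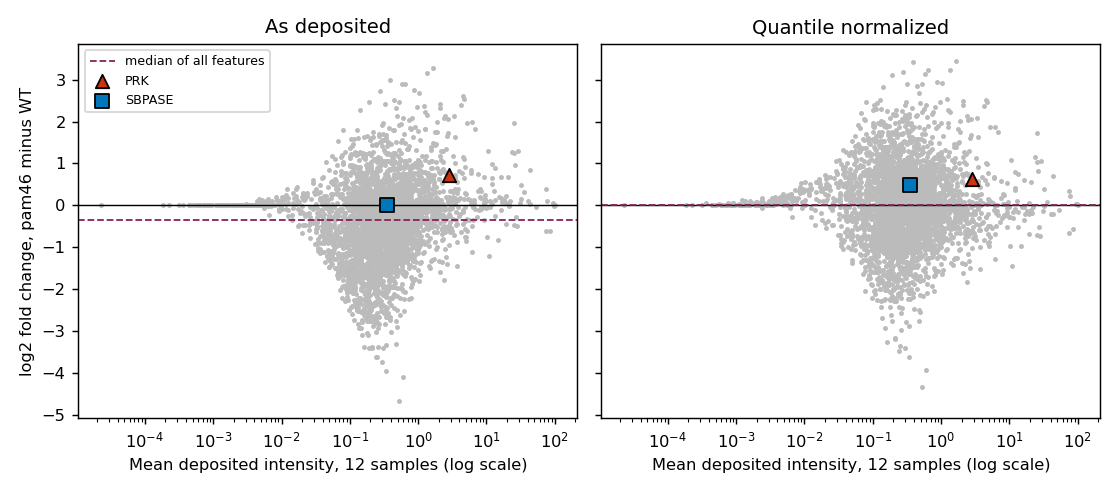
log2 fold change of pam46 minus WT for all features with a mean above 0, against the mean deposited intensity over 12 samples (log scale), on the values as deposited (left) and quantile normalized (right). The dashed line is the median of all features, at -0.355 on the deposited values, where SBPASE (square) lies near 0 and PRK (triangle) at 0.73.

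Sample numbers 1 to 6 occur in both groups, and same-numbered samples deviated together across features, so the change was also read number by number. PRK was higher in pam46 in 6 of 6 numbers, by 0.92, 0.77, 0.87, 0.18, 0.77 and 0.31 on the normalized log2 scale for numbers 1 to 6. The small differences at numbers 4 and 6 were those of the WT samples with the highest PRK. An exact two-sided sign-flip test over the 6 numbers gave p = 0.0312, the smallest it allows. With the number as a block PRK stayed called (limma adjusted p = 0.00746), and 23.7% of all features were called higher in that fit.

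SBPASE was higher in pam46 in 5 of 6 numbers, by 0.79, 0.55, -0.03, 0.02, 0.65 and 0.93 on the same scale. Numbers 3 and 4 thus showed next to no difference, and their deposited intensities in pam46 were 0.731 and 0.754 times those in WT, against 1.02 to 1.31 times at the other numbers. WT samples 3 and 4 were the highest SBPASE samples of WT, at a mean of -1.37 on the normalized log2 scale, with samples 1 and 2 at -1.77 and samples 5 and 6 at -2.19. The exact two-sided sign-flip test gave p = 0.0938. Whether the change differs between numbers was not tested.

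**Figure D3:**
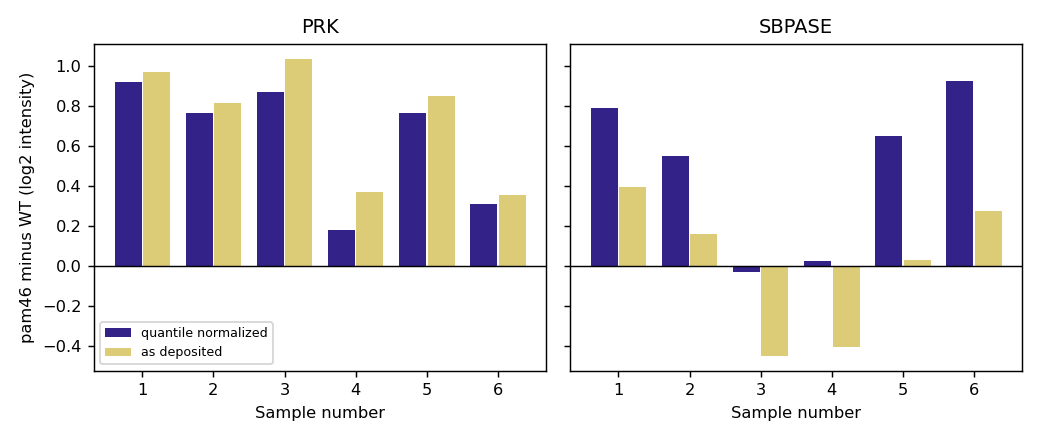
Difference of pam46 minus WT (log2 intensity) between samples of the same number, for PRK (left) and SBPASE (right), quantile normalized (dark bars) and as deposited (light bars). PRK is above 0 at all 6 numbers, while SBPASE is near 0 at numbers 3 and 4 after normalization and below 0 there as deposited.

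Samples with consecutive numbers (1 and 2, 3 and 4, 5 and 6) also deviated together within a group, which makes p-values that treat all 12 samples as independent too small. The sign-flip tests treat the differences at the 6 numbers as independent, and whether they are was not tested. With each such pair averaged, 3 against 3, PRK remained called (0.63 ± 0.12, limma adjusted p = 0.0257) and SBPASE was not (0.48 ± 0.24, limma adjusted p = 0.226, 95% interval -0.13 to 1.10), where 8.03% of all features were called higher. With the pairs averaged and blocked together neither passed (limma adjusted p = 0.0557 for PRK and 0.196 for SBPASE), where 9.74% of features were called higher. Exact permutation of 3 against 3 averages cannot go below p = 0.10, which PRK reached, and SBPASE gave p = 0.30. For PRK itself WT samples 3 and 4 differed by 0.53 and WT samples 5 and 6 by 0.47 on the normalized log2 scale, while WT samples 1 and 2 differed by 0.11 and the 3 pairs of pam46 by 0.0094 to 0.17.

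No single sample decided the PRK result, which lay between 0.60 and 0.71 with any 1 of the 12 left out and stayed called each time. The SBPASE call ended in 8 of the 12 such fits, those without WT sample 1, 2, 5 or 6 or without pam46 sample 1, 2, 4 or 5, with values from 0.36 (without WT sample 6) to 0.57 in all 12 and limma adjusted p from 0.0172 to 0.0789. Without numbers 1 and 2 SBPASE was at 0.39 (limma adjusted p = 0.248), without 5 and 6 at 0.33 (0.135), and without 3 and 4 at 0.73 (0.0159).

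**Figure D4:**
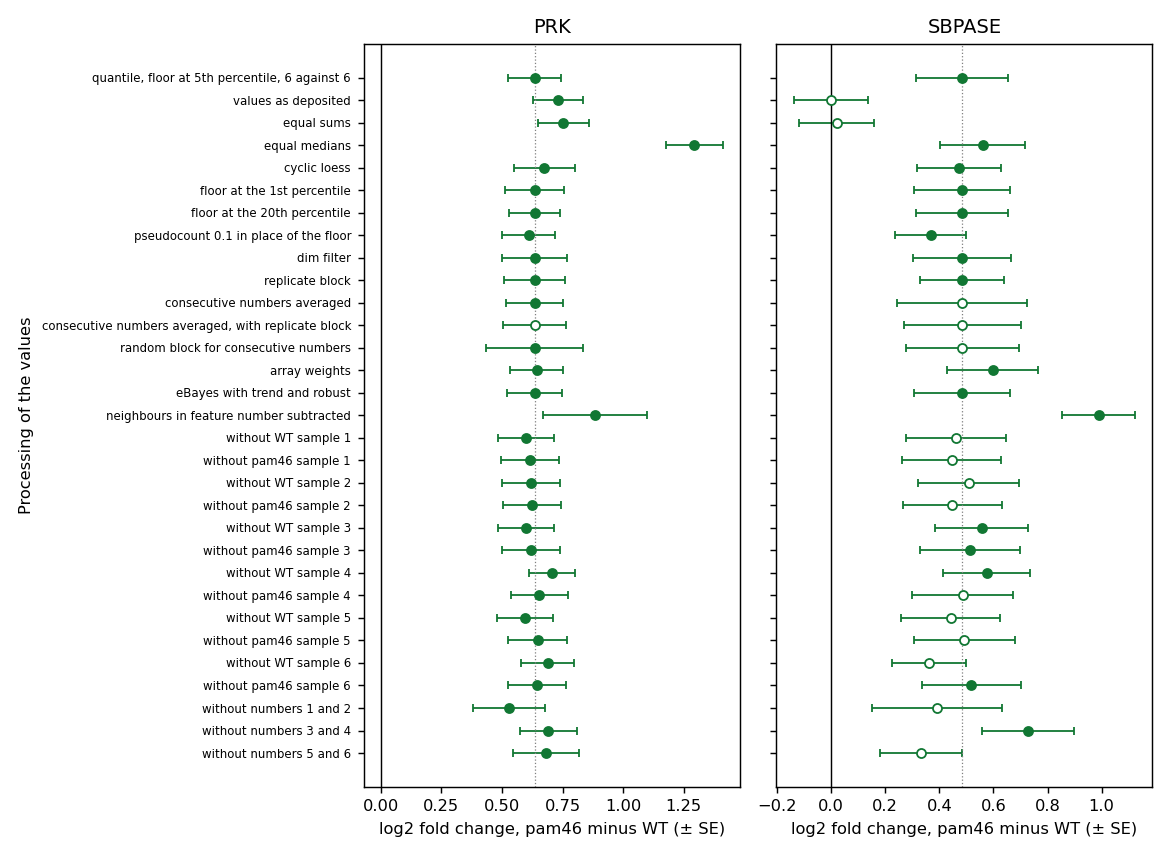
log2 fold change of pam46 minus WT (± SE) of PRK (left) and SBPASE (right) under the first-row processing and 30 alternatives, with filled circles for a limma adjusted p under 0.05. PRK stays above 0.5 throughout and is not called in 1 alternative, while SBPASE runs from about 0 on the deposited values to 0.99 and is called in 15 of 30.

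The size of the change did not differ detectably between the genes on the normalized scale. The change of PRK minus that of SBPASE was 0.15 on the log2 scale (exact two-sided permutation test, p = 0.513, n = 6 per group), with a 95% interval from -0.30 to 0.53 by inversion of that test. On the deposited values PRK changed by 0.73 more than SBPASE (95% interval 0.32 to 1.07, exact permutation p = 0.00866), and the same value holds for division by sums or medians, which cancel in this difference. Without WT sample 6, the lowest SBPASE sample, the normalized difference was 0.33 and passed (exact permutation p = 0.00216). Over the 12 samples, which share arrays and normalization, the normalized log2 values of PRK and SBPASE correlated with r = 0.595. After each group's mean was taken out r was 0.0345. WT sample 4 and pam46 sample 1 were the highest of their group in both genes, while WT sample 6 was second highest in PRK and lowest in SBPASE.

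Some features adjacent in number to each member also differed between the groups. Of the 20 nearest to PRK 3 rose and 6 fell, with a median log2 fold change of -0.203. Of the 20 nearest to SBPASE 3 rose and 10 fell, with a median of -0.574. Among all 3438 genes or features 669 rose and 744 fell (41.1% in either direction), and the count around PRK was near that share. Both members went against the median of their neighbours. With the neighbours' median deviation subtracted sample by sample, PRK was at 0.89 ± 0.21 and SBPASE at 0.99 ± 0.14 (SE, limma adjusted p = 0.0046 and 9.25e-05), and 23% of all features were called higher. A bright feature 6 numbers before PRK averaged 19.1 ± 3.91 in the WT samples and 19.5 ± 2.74 in the mutant (SD, n = 6 each), against 2.15 and 3.53 for PRK. The feature 12 numbers before PRK went from 2.95 ± 0.963 in WT to 1.64 ± 0.321 in pam46. The feature 6 numbers before SBPASE went from 1.17 ± 0.211 to 0.488 ± 0.167, against 0.352 and 0.351 for SBPASE. The sources used here do not give the array's layout, so these features need not be adjacent on it, and their part in the result was not tested.

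Few other genes of the pathway could be read. Of 26 listed Calvin cycle genes, PRK and SBPASE alone had a feature of their own, and 1 other was annotated only to a feature shared with further genes and is not reported. The median of the 2 was 0.56 on the log2 scale. Rubisco's small subunits, Rubisco activase, the kinase and dehydrogenase of the reduction phase, the aldolases, transketolases and CP12 proteins had none.

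Of 16 listed redox regulators of the cycle, 2 had their own feature, and 1 fell and 1 did not pass. The 1 called of 2 stands beside 41.1% of all features called. NTRC, the NADPH-dependent thioredoxin reductase of the chloroplast, fell by 0.52 on the log2 scale (± 0.16 SE, limma adjusted p = 0.0225). Its deposited intensity averaged 0.538 ± 0.146 in the WT samples and 0.267 ± 0.0425 in those of pam46 (SD, n = 6 each). On the deposited values NTRC was at -0.99. Its call ended with equal medians (-0.42, limma adjusted p = 0.0627), with neighbours subtracted (-0.20, 0.247) and without numbers 5 and 6 (-0.61, 0.0823). It also ended with consecutive numbers averaged (limma adjusted p = 0.179), with these averages blocked (0.108) and with a random block for consecutive numbers (0.0747). AT2G04700 was at 0.24 ± 0.19 (limma adjusted p = 0.347). Equal medians put this gene at 0.73 and higher in pam46 (limma adjusted p = 0.00763), where 26.2% of all features were called higher. The remaining 29 settings left AT2G04700 uncalled. The change of NTRC differed from that of PRK by 1.15 and from that of SBPASE by 1.002 (log2, exact two-sided permutation test, p = 0.00216 each, 0.00505 after Benjamini-Hochberg adjustment over 14 such pairs). These pairs were chosen after the values were seen. With consecutive numbers averaged neither difference passed (exact permutation, p = 0.10 each, the smallest it allows, and 0.20 after adjustment).

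The single measured gene of 10 listed for photorespiration, the pathway that returns carbon from Rubisco's oxygenation product to the cycle, rose. It is LrgB (AT1G32080), the plastid glycolate and glycerate transporter, at 0.71 ± 0.12 (SE, limma adjusted p = 0.000622, and 0.0352 with averaging). Its deposited intensity went from 0.359 ± 0.0355 to 0.442 ± 0.0677 (SD, n = 6 each). Among all features 19.5% were called higher, and 8.03% with averaging. Of 8 listed genes of starch synthesis and carbon export none had its own feature. Of 8 of the pentose phosphate pathway 1 had, AT1G12230, which was at the floor in all 12 samples and listed at 0 in all 6 of pam46.

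Among photosystem and antenna genes the directions were mixed: of 35 listed 5 had their own feature, of which 1 rose, 2 fell and 2 did not pass, with a median of -0.378. The 3 called of 5 stand beside 41.1% of all features called. PSAN, a lumenal photosystem I subunit, was at -0.86 and LHB1B2, a light-harvesting protein with near-identical copies and so uncertain, at -0.71 (limma adjusted p = 0.000363 and 0.00325). With equal medians they were at -0.19 and 0.085 and not called, and LHB1B2 was not called with averaging either (limma adjusted p = 0.0703). PRK changed by 1.50 more than PSAN and 1.34 more than LHB1B2, and SBPASE by 1.35 and 1.19 more (log2, exact two-sided permutation test, p = 0.00505 each after adjustment over the 14 pairs). With consecutive numbers averaged, the exact permutation test of such a pair cannot go below p = 0.10 before adjustment. On the deposited values these 4 differences were 1.48, 1.21, 0.75 and 0.48, the last of them not passing (exact permutation, adjusted p = 0.0572). PSB27, a photosystem II assembly protein, had the highest value and a wide error, at 1.28 ± 0.83 (SE, limma adjusted p = 0.244). PSBW, a small photosystem II subunit, rose by 0.69 ± 0.16 (SE, limma adjusted p = 0.00569), a call that ended with the random block (0.0967) and with blocked averages (0.0606). With PSBW the difference was -0.06 for PRK and -0.21 for SBPASE, and neither passed (exact permutation, adjusted p = 0.760 and 0.506). PSBY was at -0.378 ± 0.154 (SE, limma adjusted p = 0.0715) and not called. PRK changed by 1.01 and SBPASE by 0.86 more than PSBY (log2, exact permutation, adjusted p = 0.00866 and 0.0341). On the deposited values that difference for SBPASE was 0.34 and did not pass (exact permutation, adjusted p = 0.291).

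**Figure D5:**
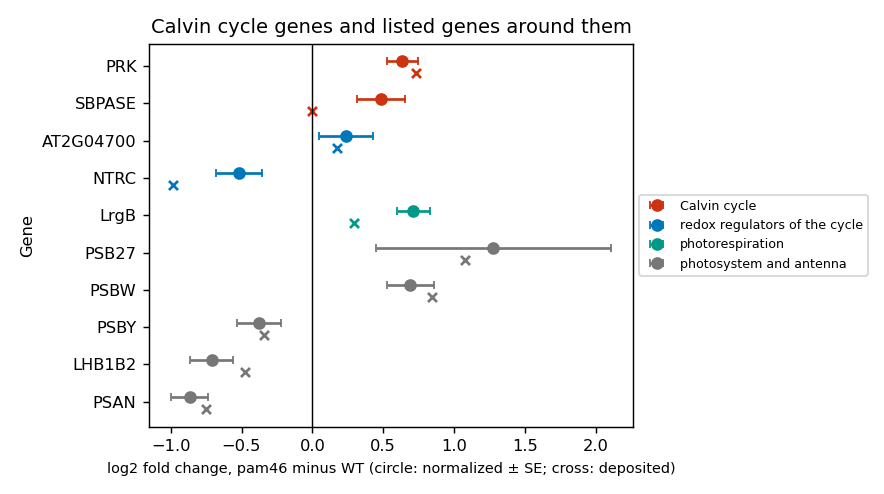
log2 fold change of pam46 minus WT for PRK, SBPASE and the listed genes with their own feature except AT1G12230 (circles, normalized, ± SE; crosses, as deposited), coloured by list. PRK, SBPASE, LrgB and PSBW lie between 0.48 and 0.71 on the normalized scale, with NTRC, LHB1B2 and PSAN between -0.52 and -0.86.

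Genes with a pattern like that of each member were looked for among 510 others with their own feature and no sample at the floor, by Pearson correlation of normalized log2 values over the 12 samples. AT5G41960, AT3G09050, AT4G24930, AT3G16310 and AT4G27250 were most like PRK, at r from 0.919 to 0.931, and SBPASE was at place 118. AT5G39980, AT3G57630, AT4G15840, AT4G09040 and SPL were most like SBPASE, at r from 0.843 to 0.918, and PRK was at place 73. These values contain the difference between the groups, in which 9 of the 10 genes were called higher, the exception being AT3G57630. The choice favours genes that changed as the members did, so this count is not a result about them. Among all features 19.5% were called higher. On deviations from the group means AT1G11470 (0.757), AT2G31920 (0.756), AT3G09080 (0.704), AT3G16310 (0.683) and AT3G54210 (0.681) were most like PRK. For SBPASE they were AT5G39980 (0.871), AT3G57630 (0.860), AT4G14050 (0.826), AT4G26770 (0.825) and AT2G25640 (0.798). AT3G16310 for PRK and AT5G39980 and AT3G57630 for SBPASE were thus on both lists. The median r of the 510 genes on these deviations was -0.00279 with PRK and 0.0947 with SBPASE. Each list takes the highest r of 510, so the size of these r is not a result about the genes. The 12 samples share numbers and consecutive-number pairs, which such correlations also pick up.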

How the data were processed

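The authors deposited 1 table of spot intensity, on a linear scale, for 3439 features in 12 samples, and the sources used here do not say how the array was background-corrected, normalized or laid out. By the platform annotation in GEO, which may be out of date, 692 features carry 1 gene, 870 several and 1877 none. Features with several genes were left unnamed. Names were matched through Entrez IDs to the RefSeq table of TAIR10.1 (690 features matched), which was used for names and gene order only. For a gene with 2 features the brighter was kept. Members, gene lists and alternatives were chosen with earlier results of these data known.

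Values were quantile normalized, set to at least the 5th percentile of positive values (0.0277), and log2 transformed. Groups from the sample titles were compared by lmFit and eBayes (limma 3.58.1 under R 4.3.3, two-sided, Benjamini-Hochberg over 3438 genes or features, called at an adjusted p under 0.05). Exact permutation tests enumerate 924 splits. The fitting steps were tested on simulated data with independent noise in every sample, which does not cover samples that deviate together. Named genes are the members, all listed genes with their own feature, and the 5 most correlated genes per member and measure.

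Sample numbers were checked on deviations from group means. The same number in both groups correlated at r = 0.24 to 0.565 in all 6 pairs, above the 0.1 set for pairing. Consecutive numbers of a group correlated at 0.259 to 0.67, and other samples of a group at -0.575 to -0.186. The pairing rests on the labels' numbers and on this check, since the meaning of a number is not stated. Alternatives covered scaling, floor, filter, variance model, block, averaging, neighbours and left-out samples. The 14 comparisons of the change of a member with that of another listed gene were chosen after the values were seen. That of PRK with SBPASE was planned, with earlier results of these data known.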

Additional observations from a re-analysis of the deposited data

How the results depend on the processing

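PRK was higher in pam46 in all 30 alternatives (0.53 to 1.29, log2) and called in 29, the exception being consecutive numbers averaged with the replicate block (0.63, adjusted p = 0.0557). With 1 sample left out it was 0.60 to 0.71. SBPASE was called in 15 of 30. Its call ended with equal sums (0.020) and, at 0.48, with consecutive numbers averaged, with that plus the replicate block, and with the random block for consecutive numbers (adjusted p = 0.112), as well as without numbers 1 and 2 (0.39) or 5 and 6 (0.33). With 1 sample left out it was 0.36 to 0.57 and called in only 4 of 12 fits. Its sign turned on the values as deposited (-0.00093). The replicate block on 12 samples changed neither member's call (SBPASE adjusted p = 0.0414).

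Of 3438 genes or features 1413 changed (47.3% of them higher), against 588 with averaging, 695 with averaging and the replicate block, 919 with the random block, and 1315 to 1390 with 1 sample left out. Of the calls, 22.3% were higher on the deposited values, 58.4% with equal medians and 23.1% with equal sums.

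The change of PRK minus that of SBPASE (0.15) passed on the deposited values and under division by sums or medians (0.73 each), and without numbers 5 and 6 (0.35). It turned to -0.10 with neighbours subtracted and -0.038 without numbers 3 and 4, and was 0.044 to 0.33 with 1 sample left out. It was not run with the random block, array weights or trended variance, which need a fit across features.

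Signs of other genes and differences also turned, and the cause was not tested. LHB1B2 and AT3G54210 had been called as lower, and the others had not been called. PSBY reached 0.22 with equal medians and 0.35 with neighbours subtracted, and AT3G54210 0.15 with neighbours subtracted. LHB1B2 was at 0.085 with equal medians. AT2G31920 was at 0.022 with cyclic loess and 0.00074 without numbers 5 and 6. AT2G04700 was at -0.16 and the change of PRK minus PSB27 at 0.16 without numbers 3 and 4. AT3G09080 was at -0.00194, -0.00594 and -0.074 without WT sample 1, WT sample 2, or numbers 1 and 2, and at -0.0059 to 0.12 with any 1 sample left out. The change of PRK minus PSBW was 0.011 to 0.051 without pam46 sample 1, WT sample 4 or pam46 sample 4, -0.15 to 0.051 with any 1 sample left out, and 0.057 without numbers 3 and 4. There SBPASE minus PSBW was 0.095 and SBPASE minus PSB27 0.19. SBPASE minus AT2G04700 was -0.17 on the deposited values and under division by sums or medians, and -0.19 without numbers 5 and 6.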

Other observations

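LrgB lies 2 protein-coding genes from PRK in the RefSeq order of chromosome 1, and was the single gene with its own feature among the 10 nearest to PRK. Both rose, at 0.71 and 0.63 on the log2 scale. None of the 10 nearest to SBPASE had its own feature. In none of the 8 sets of 6 samples examined (PRK and SBPASE, WT and pam46, deposited and normalized) did a sample stand apart from the others by Dixon's test, the widest gap being 0.382 of the range, for WT sample 6 in SBPASE. The test measures the gap of a single sample, so it could not mark samples that stand together, as WT samples 4 and 6 did for PRK.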
